A study of Mus musculus with 12 samples.

Results

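tRNA-Cys genes were measured in small RNA libraries of the mouse hippocampus as 61 rows, 1 row per gene copy, of a table of small non-coding RNAs other than miRNAs (misc RNA table), which has 4645 rows and 486 tRNA rows. Every row that the table annotates as tRNA-Cys was taken. Copies with the same count in all 12 libraries cannot be told apart and were kept once, which left 27 distinct rows. The family was chosen by its measured counts in the comparison of cKO with Control and in replicate numbers 1 to 3 and 4 to 6, so its differences there are described and support nothing further.

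tRNA-Cys carries cysteine to the ribosome and reads the cysteine codons through the anticodon GCA. Nuclear tRNA genes are transcribed by RNA polymerase III from many near-identical copies, and their transcripts are trimmed at both ends, given a CCA tail and modified at many bases. In a small RNA library a tRNA row counts short pieces of tRNA, such as the fragments cut by angiogenin or other nucleases, together with any broken or partly copied tRNA, so a row does not give the level of whole, charged tRNA.

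Kat2a, the enzyme removed in this study, adds acetyl groups to histones. Kat2a cKO mice had the genotype Kat2afl/fl with CamKIIα-cre, a Cre that acts in forebrain excitatory neurons (n = 6), and Control mice had the same floxed alleles and no Cre (n = 6). All were C57BL/6J mice aged 3 to 5 months, and RNA came from the dissected CA1 subfield, which also holds interneurons, glia and vessels that this Cre does not target. The labels give sample numbers 1 to 6 in each group and name no animals, so the errors and p-values below measure the spread between these samples. In such bulk tissue, fewer cells of a type and less RNA per cell cannot be told apart.

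The misc RNA table held 1850184 to 8586979 reads per library in cKO and 1779081 to 5086458 in Control. Kat2a itself had 13 reads in cKO and 23 in Control over all libraries of a table of all RNAs, with 0 to 5 reads per cKO library and 0 to 8 per Control library, too few to check the labels. The CA1 genes Wfs1, with 28 reads in cKO and 19 in Control, and Fibcd1, with 26 in cKO and 18 in Control, were found at the same low depth, as was Mpped1, with 61 in cKO and 34 in Control. Of the dentate gyrus and CA3 genes, Prox1 had 31 reads in cKO and 30 in Control, Dsp had 85 in cKO and 68 in Control, and Grik4 had 760 reads in cKO and 143 in Control, of which 1 cKO library had 335 and 1 Control library 127. In the first principal component of the misc RNA table (26.2% of the variance) cKO 1, 2 and 3 lay on one side and cKO 4, 5 and 6 on the other, and results are also given by these sets of numbers. Control libraries did not split this way: Control 2 and 6 lay on the side of cKO 1 to 3, and Control 1, 3, 4 and 5 on the other. The labels do not say what the numbers stand for.

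The family was dominated by 1 cluster. Of the 61 copies, 51 were on chromosome 6, 5 on chromosome 11, 2 on chromosome 9, 2 on chromosome 4 and 1 on chromosome 17. On chromosome 6, 49 copies lay within 230 kb, with a median of 3.27 kb and at most 22.2 kb between neighbouring starts. Copies of the cluster stood on both strands, 21 on the plus and 28 on the minus strand. Most of the 61 rows, 57 of them, were 72 bases long, and the others were 68 to 74 bases. Positions are those of the file, on numbered contigs of a build that is not given in the sources used here.

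RefSeq names could be given to 55 of the 61 copies. All 48 RefSeq tRNA-Cys genes of chromosome 6 fell on the file's rows with 1 constant shift, and the next best shift placed 2. The 5 genes of chromosome 11 and the 2 of chromosome 9 likewise each had 1 shift, and 6 rows stayed unnamed. In RefSeq (GRCm38.p6), 47 of the 55 named copies lie inside Gm16630, a long non-coding RNA gene on chromosome 6, and 8 lie in no other gene.

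Counts of the copies were almost nested. The row with most reads was shared by 4 copies, n-TCgca54, n-TCgca55 and n-TCgca56 on chromosome 11 and n-TCgca57 on chromosome 6 outside the cluster, and had 6177 reads over the 12 libraries. All 26 other distinct rows were at or below it in every library. The most frequent row belonged to 29 copies, 28 in the chromosome 6 cluster and 1 on chromosome 9, among them n-TCgca37, and had 5691 reads, 92.1% of the top row. How reads that match several copies were counted is not given in the sources used here. Copies with equal counts cannot be separated, so neither row can be assigned to a single gene.

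Distinct rows fell into a high and a low group. Of the 27, 16 had at least 50% of the reads of the top row, between 3169 and 6177 reads, and they stand for 49 copies. Just inside that limit was n-TCgca6 with 3169 reads. Next came n-TCgca48, far below the limit with 497 reads (8.05% of the top row), and the remaining low rows had 324 or fewer. Low rows were n-TCgca2 (324 reads), n-TCgca10 (280 reads), n-TCgca7 (223 reads), n-TCgca8 (110 reads), n-TCgca1 (51 reads), an unnamed chromosome 6 copy (37 reads), n-TCgca3 (33 reads) and n-TCgca12 (26 reads). A chromosome 4 copy had 3 reads, all in Control 6. A further pair of copies, 1 on chromosome 4 and 1 on chromosome 6 outside the cluster, had 0 reads in all 12 libraries.

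Low copies were scattered among high ones. In the chromosome 6 cluster 40 copies were high and 9 low, and each of the 9 low copies had a high copy as its neighbour on both sides. Of the high copies 17 stood on the plus strand and 23 on the minus strand, and of the low copies 4 on the plus and 5 on the minus strand. Neighbouring copies could differ widely in reads. The row of n-TCgca10 (contig 2 of chromosome 6, 402471 to 402542, minus strand) had 280 reads, and n-TCgca4 (403445 to 403516, same strand), the next copy, had 4221.

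**Figure D1:**
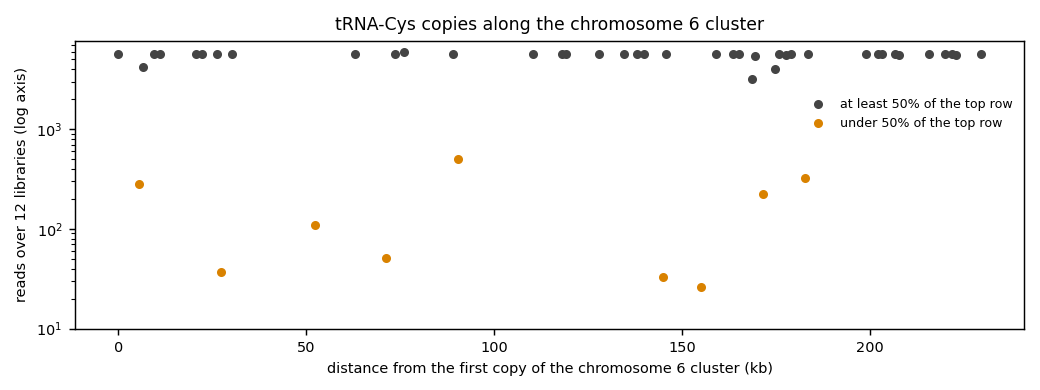
Reads per tRNA-Cys copy, summed over the 12 libraries on a log axis, against distance in kb from the first copy of the chromosome 6 cluster; each point is 1 of 49 copies, dark where it had at least 50% of the reads of the top row and orange below. The 40 high copies form a band between 3169 and 5879 reads, and the 9 low copies, at 26 to 497 reads, lie singly between them.

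Levels are given as CPM, read counts scaled to a common total of the misc RNA table with TMM factors. The top row, n-TCgca56 (contig 2 of chromosome 11, 9199461 to 9199532, plus strand), had 162, 403, 134, 95.0, 94.9 and 99.4 CPM in cKO 1 to 6. In Control 1 to 6 it had 94.2, 80.2, 103, 96.8, 102 and 98.1 CPM. Only cKO 1, 2 and 3 lay above every Control library, and cKO 4, 5 and 6 lay within the Control range. Means were 165 ± 120 CPM in cKO and 95.6 ± 8.16 CPM in Control (SD, n = 6 each), so the cKO spread was wider than the difference.

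The row of n-TCgca37 (contig 2 of chromosome 6, 396898 to 396969, plus strand) and 28 further copies followed the same order. It had 152, 387, 124, 88.6, 80.2 and 90.7 CPM in cKO 1 to 6, and 83.7, 70.6, 95.7, 89.0, 97.4 and 90.3 CPM in Control 1 to 6. Again cKO 2 was highest, followed by cKO 1 and cKO 3, and cKO 5 was below 5 of the 6 Control libraries.

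The high row with fewest reads, n-TCgca6 (contig 2 of chromosome 6, 565420 to 565491, plus strand), had 92.7, 215.5, 65.7, 49.5, 41.2 and 49.4 CPM in cKO 1 to 6. In Control 1 to 6 it had 53.8, 47.5, 52.1, 40.5, 69.7 and 45.0 CPM. Here only cKO 1 and 2 stood above the highest Control library, Control 5.

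The other 13 high rows repeated this order, with cKO 2 highest and cKO 1 next in all 16. Among them n-TCgca51 and n-TCgca53 were closest to the top row, with cKO medians of 113 CPM each and Control medians of 94.5 and 94.2 CPM. The row of n-TCgca49 had a median of 112 CPM in cKO and 93.1 CPM in Control, and that of n-TCgca18 had 108 CPM in cKO and 90.0 CPM in Control. Rows of n-TCgca50, n-TCgca13, n-TCgca15, n-TCgca9, n-TCgca11, n-TCgca5 and n-TCgca17 had medians of 103 to 108 CPM in cKO and 85.6 to 89.7 CPM in Control.

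The remaining 2 high rows lay between these and n-TCgca6. The row of n-TCgca4 ranged from 53.6 to 311 CPM in cKO with a median of 75.7, and from 57.1 to 84.8 CPM in Control with a median of 62.1. That of n-TCgca16 (contig 2 of chromosome 6, 571690 to 571761, minus strand) ranged from 50.7 to 304 CPM in cKO with a median of 72.4, and from 55.0 to 82.8 CPM in Control with a median of 59.0. In both, the highest library was cKO 2 and the lowest was cKO 5, below all Control libraries.

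In none of the 4 low tested rows was cKO 2 the highest library. The row of n-TCgca48 (contig 2 of chromosome 6, 487290 to 487361, minus strand) had 16.1, 12.9, 13.6, 6.65, 11.9 and 8.91 CPM in cKO 1 to 6. In Control 1 to 6 it had 7.93, 10.2, 8.72, 8.35, 7.07 and 10.3 CPM. The highest library was cKO 1 and the lowest was cKO 4, and means were 11.7 ± 3.39 CPM in cKO and 8.76 ± 1.27 CPM in Control (SD, n = 6 each).

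The row of n-TCgca2 (contig 2 of chromosome 6, 579498 to 579567, plus strand), 70 bases long, had 14.5, 10.4, 8.81, 5.06, 6.49 and 5.88 CPM in cKO 1 to 6. In Control 1 to 6 it had 4.09, 5.08, 5.65, 4.97, 5.80 and 6.25 CPM. Of the cKO libraries, 4 lay above the highest Control library, and cKO 4 and 6 lay within the Control range. Means were 8.51 ± 3.52 CPM in cKO and 5.31 ± 0.762 CPM in Control (SD, n = 6 each).

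The row of n-TCgca10 had 11.3, 9.24, 8.56, 4.26, 5.65 and 5.17 CPM in cKO 1 to 6, and 3.85, 3.39, 4.88, 4.26, 4.04 and 5.94 CPM in Control 1 to 6. The libraries cKO 1, 2 and 3 were above all of Control and the other cKO libraries were not. Means were 7.35 ± 2.74 CPM in cKO and 4.39 ± 0.902 CPM in Control (SD, n = 6 each).

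For n-TCgca7 (contig 2 of chromosome 6, 568425 to 568496, minus strand) the values were 10.2, 8.96, 4.28, 1.86, 7.33 and 4.63 CPM in cKO 1 to 6. In Control 1 to 6 they were 3.13, 1.69, 3.59, 3.55, 1.26 and 1.88 CPM. Here 5 of the 6 cKO libraries, cKO 5 and 6 included, exceeded the highest Control library, and cKO 4 was within the Control range. Means were 6.21 ± 3.15 CPM in cKO and 2.52 ± 1.03 CPM in Control (SD, n = 6 each), and these rest on 162 reads in cKO and 61 in Control.

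The first row below the filter, n-TCgca8 (contig 2 of chromosome 6, 449279 to 449350, plus strand), had 3.22, 3.64, 4.03, 0.532, 3.00 and 1.78 CPM in cKO 1 to 6, from 72 reads. In Control 1 to 6 it had 0.962, 1.13, 2.31, 1.78, 2.27 and 1.25 CPM, from 38 reads. The libraries cKO 1, 2, 3 and 5 were above all of Control, and cKO 4 was the lowest of the 12.

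**Figure D2:**
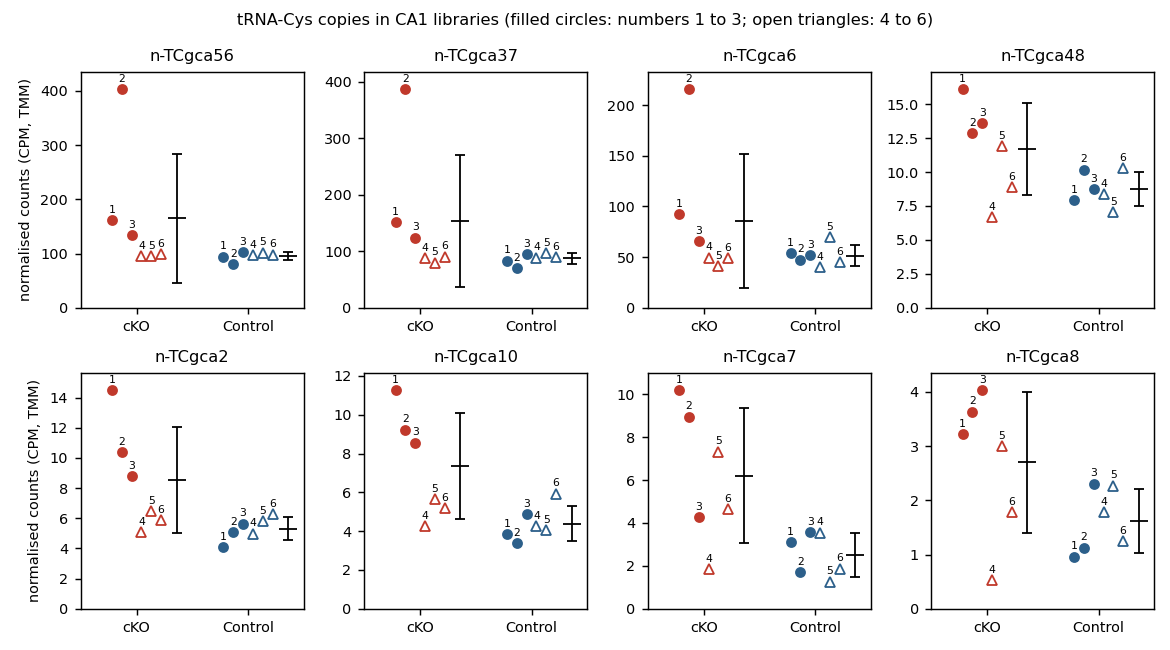
TMM-scaled CPM (linear axes from 0) of 8 tRNA-Cys rows in each cKO library (red, left) and each Control library (blue, right); digits are replicate numbers, filled circles numbers 1 to 3, open triangles 4 to 6, and the black bar the mean ± SD of 6 libraries. In n-TCgca56, n-TCgca37 and n-TCgca6 cKO 2 is far above the other libraries, at 403, 387 and 215.5 CPM, while in n-TCgca48, n-TCgca2, n-TCgca10 and n-TCgca7 cKO 1 is highest.

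The fit over the whole misc RNA table, by edgeR's quasi-likelihood test with Benjamini-Hochberg adjustment at a threshold of 0.05, called 0 of 1073 rows between cKO and Control (0%), and DESeq2 also called 0. At an unadjusted p under 0.05, edgeR had 77 of these rows. Of the 27 tRNA-Cys rows, 20 passed the filter on low counts, standing for 53 copies, and 7 did not, with 0 to 110 reads each. A row that passes only through its cKO libraries is bound to differ, so the counts over the 20 support nothing. None of the 20 was called, and in none were the 2 groups free of overlap.

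All 20 had a higher mean in cKO. The 16 high rows had log2 fold changes of cKO over Control from 0.73 to 0.82, with standard errors of 0.33 to 0.39. For n-TCgca48 the log2 fold change was 0.41 ± 0.23 (SE). The 3 smallest p-values of the family were those of n-TCgca7, n-TCgca10 and n-TCgca2. By edgeR, n-TCgca7 had a log2 fold change of 1.21 ± 0.38 (SE, adjusted p = 0.61), with an unadjusted p of 0.00677. That of n-TCgca10 was 0.70 ± 0.26 by edgeR (SE, adjusted p = 0.61), and that of n-TCgca2 was 0.64 ± 0.26 (SE, adjusted p = 0.61). Over all 20 rows adjusted p by edgeR ran from 0.61 to 0.83, and over the alternatives of processing it ran from 0.25 to 0.95.

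tRNA-Cys copies made up most of the rows with small p. Rows higher in cKO at an unadjusted p under 0.05 were 73 of 1073 (6.8%), the tRNA-Cys copies included, and 4 more were lower. Of these 77 rows, 50 were tRNA-Cys copies (64.9%), from 17 distinct rows, whereas tRNA-Cys copies were 53 of the 1073 rows tested (4.94%). The count is repeated by design, since copies with the same reads give the same p. The family was chosen on this contrast, so these shares are a description and support nothing. Among rows that were not tRNA-Cys, 27 of 1020 (2.65%) had such a p. With identical rows kept once over the table, 16 of the 27 rows with such a p were tRNA-Cys, of 850 tested, 20 of them tRNA-Cys.

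The median log2 fold change of the 20 rows was 0.81. Over all 1073 rows tested the median was 0.026, and over the 353 tested rows of other tRNAs it was 0.22. These medians are given side by side with no test, since the contrast itself chose the family.

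For the high rows, 1 library carried much of the difference. Without cKO 2, the 16 high rows had log2 fold changes of 0.25 to 0.34, and the 4 low tested rows had 0.40 to 1.07, close to their values with it. The log2 fold change of n-TCgca2 moved more without cKO 1, to 0.43. Without cKO 2, unadjusted p was under 0.05 in 19 of 1084 rows of the table, of which 1 was a tRNA-Cys copy. The row of n-TCgca56 stood at 0.33 ± 0.22 (SE) and that of n-TCgca7 at 1.07 ± 0.44 (SE). Whether high and low rows depended on cKO 2 to a different degree was not tested.

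By replicate number, the higher level was found in numbers 1 to 3. In these libraries alone the high rows had log2 fold changes of 1.46 to 1.60 and the low tested rows of 0.82 to 1.55. All 21 distinct rows tested there had an unadjusted p under 0.05 by edgeR. They stand for 54 copies, which are among the 86 of 1069 rows of the table with such a p. After adjustment 0 rows were called there. The family was also chosen by these sets, so these p-values support nothing. In numbers 4 to 6 alone the high rows had log2 fold changes of -0.14 to -0.022 and the low ones of 0.076 to 1.07, and 0 of 20 tRNA-Cys rows had an unadjusted p under 0.05, against 67 of 1125 rows of the table. The exception in size was n-TCgca7, with 1.07 ± 0.56 (SE) in numbers 4 to 6 and 1.55 ± 0.51 (SE) in numbers 1 to 3. Its value in numbers 4 to 6 (edgeR, adjusted p = 0.61) rests on few reads. There were 7, 61 and 26 reads in cKO 4, 5 and 6, and 20, 5 and 6 in Control 4, 5 and 6.

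The difference of the cKO effect between the sets, fitted over the table as an interaction, passed the threshold in 0 of 1163 rows (0%), with 115 at an unadjusted p under 0.05 by edgeR and 0 called by DESeq2. For the 16 high tRNA-Cys rows the log2 difference was 1.41 to 1.62 (edgeR, adjusted p = 0.27 to 0.29). Leaving out cKO 3 changed this. The same fit then called 49 rows of 1187, with log2 differences of 1.94 to 2.18 (edgeR, adjusted p = 0.031 to 0.032). All 49 were the tRNA-Cys copies of the 16 high rows, so they are 16 distinct rows and not 49 separate results. Identical rows entered the adjustment as separate tests, and this fit was not run with identical rows kept once. The family was also chosen by these sets, so the calls support nothing. Without cKO 2 the log2 differences were 0.75 to 0.86 and no row was called, so the outcome turned on which of these libraries was kept.

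The sets were also compared with each other over both groups. Numbers 1 to 3 against 4 to 6, with group in the model, gave 148 of 1133 called rows (13.1%), 117 higher and 31 lower in numbers 1 to 3. None of the 21 tRNA-Cys rows tested was among them. Their log2 fold changes of numbers 1 to 3 over 4 to 6 were 0.40 to 0.80, all above 0, by edgeR with adjusted p from 0.17 to 0.51. This fit averages over both groups, and Control alone did not show it. In numbers 1 to 3 and 4 to 6, n-TCgca56 had means of 233 and 96.4 CPM in cKO and 92.4 and 98.9 CPM in Control. Of the tested rows, only n-TCgca48 (8.94 and 8.58 CPM) and n-TCgca7 (2.80 and 2.23 CPM) had a higher Control mean in numbers 1 to 3. Leaving out cKO 5, cKO 6 or Control 5 brought the number of called rows to 0. Without cKO 1 it was 4, without cKO 3 it was 3 and without Control 2 it was 2. Leaving out Control 3 brought it to 215, and 0 tRNA-Cys rows were called in any of these fits.

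The summed level of the family shows the same libraries. Over distinct rows the sum was 2346, 5926, 1902, 1350, 1251 and 1394 CPM in cKO 1 to 6, and 1308, 1116, 1466, 1343, 1528 and 1366 CPM in Control 1 to 6. All of cKO 1, 2 and 3 stood above the highest Control library and none of cKO 4, 5 and 6 did. In numbers 1 to 3 the mean was 3391 ± 2206 CPM in cKO and 1297 ± 175 CPM in Control (SD, n = 3 each). In numbers 4 to 6 it was 1332 ± 73.1 CPM in cKO and 1412 ± 101 CPM in Control (SD, n = 3 each). The difference of mean log2 CPM, cKO minus Control, was 0.56 over all libraries, 1.21 in numbers 1 to 3 and -0.084 in numbers 4 to 6, and 0.25 without cKO 2.

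The sum would count a read once per row if reads were counted at every matching copy, which was not tested. Distinct rows added up to 13.2 to 15.0 times the top row of the same library, and all 61 rows to 41.6 to 46.8 times. The top row alone gave a difference of 0.56, and it was 0.0153% of the reads of the misc RNA table in cKO and 0.0101% in Control. Summed over all 61 rows, the share was 0.692 ± 0.472% in cKO and 0.452 ± 0.0577% in Control (SD, n = 6 each). As a share of all distinct tRNA rows, tRNA-Cys was 1.26 ± 0.809% in cKO and 0.883 ± 0.136% in Control (SD, n = 6 each).

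Rows of the family were also compared within a library, as a percentage of the top row, which does not depend on the scaling. The row of n-TCgca6 was 57.1, 53.5, 48.9, 52.1, 43.4 and 49.6% of the top row in cKO 1 to 6, and between 41.8 and 68.5% in Control. In cKO 2, where the top row was highest, n-TCgca6 kept a share within the Control range. So did n-TCgca49, n-TCgca15, n-TCgca9, n-TCgca11, n-TCgca4 and n-TCgca16. The other high rows had a share in cKO 2 above all of Control. That of n-TCgca51 was 99.65%, against at most 97.75% in Control, and that of n-TCgca37 was 96.04%, against at most 95.78%.

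Rows of n-TCgca48, n-TCgca10 and n-TCgca2 had a lower share in cKO 2, where the top row they are divided by was itself 4.10 times the median of the other libraries. The row of n-TCgca48 was 9.90, 3.20, 10.1, 7.0, 12.5 and 8.96% of the top row in cKO 1 to 6, and between 6.95 and 12.7% in Control. That of n-TCgca10 was 6.93, 2.29, 6.37, 4.48, 5.95 and 5.20% in cKO 1 to 6, and between 3.97 and 6.05% in Control. That of n-TCgca2 was 8.91, 2.57, 6.55, 5.32, 6.84 and 5.91% in cKO 1 to 6, and between 4.34 and 6.37% in Control. For these 3 rows the share in cKO 2 was the lowest of all 12 libraries, although their own levels there, 12.9, 9.24 and 10.4 CPM, were above all of Control. For n-TCgca7 it was 6.27, 2.22, 3.18, 1.96, 7.72 and 4.66% in cKO 1 to 6 and between 1.24 and 3.67% in Control, so here cKO 2 lay within the Control range.

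**Figure D3:**
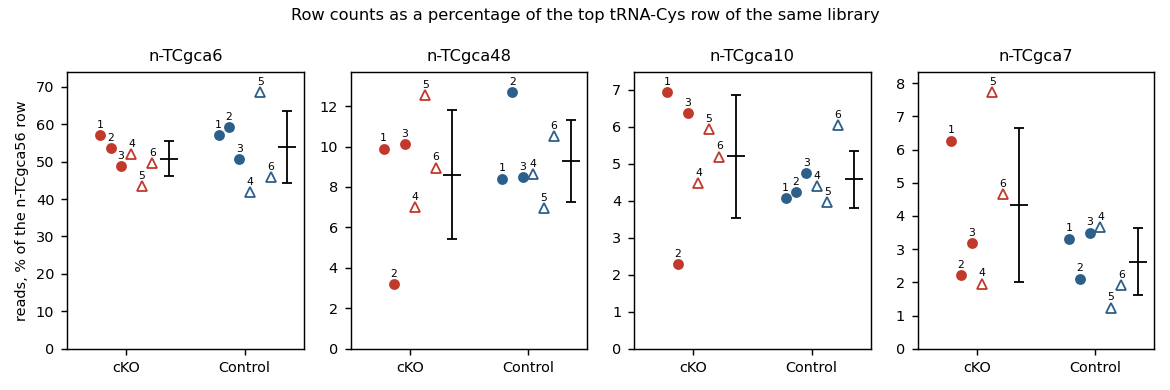
Reads of 4 tRNA-Cys rows as a percentage of the n-TCgca56 row of the same library (axes from 0), in cKO (red, left) and Control (blue, right) libraries; digits are replicate numbers, filled circles numbers 1 to 3, open triangles 4 to 6, and black bars the mean ± SD of 6 libraries. In n-TCgca48 and n-TCgca10 cKO 2 is the lowest library, at 3.20% and 2.29%, while in n-TCgca6 it is at 53.5%, inside the Control range.

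Differences between rows of the same library were also taken. The top row minus the n-TCgca37 row was 15.95 CPM in cKO 2, 6.39 to 14.7 CPM in the other cKO libraries and 4.29 to 10.6 CPM in Control. The n-TCgca37 row minus the n-TCgca6 row was 171 CPM in cKO 2, 39.0 to 59.0 CPM in the other cKO libraries and 23.2 to 48.5 CPM in Control. The n-TCgca6 row minus the n-TCgca48 row was 203 CPM in cKO 2, 29.3 to 76.7 CPM in the other cKO libraries and 32.2 to 62.6 CPM in Control. The last 2 differences were the larger ones in cKO 2 and in the other libraries alike, with Control means of 7.84, 36.4 and 42.7 CPM for the 3.

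Among the tRNAs of the table, sorted into 21 annotated classes, tRNA-Cys was of middling abundance. It ranked 6 of 21 by reads summed over distinct rows and 11 of 21 by its top row. It had the second highest log2 difference of summed level, cKO minus Control, at 0.56, after tRNA-Tyr at 0.71 and before tRNA-Val at 0.50. Without cKO 2 the tRNA-Cys difference was 0.25 and ranked 9 of 21, against 0.90 for tRNA-Tyr and 0.37 for tRNA-Val. The tRNA-Tyr value came with a level of 617 CPM in cKO 4 and 167 CPM in the highest Control library.

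The level of tRNA-Cys in cKO 2 was 4.34 times the median of the other 11 libraries, the highest ratio of the 21 classes, followed by tRNA-Val at 1.84 and tRNA-Lys at 1.45. In 5 of the 21 classes cKO 2 was the highest library. This is a description of 1 library, and it has no replicate.

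Over all 12 libraries, the 3 classes nearest to tRNA-Cys in summed reads were level or less far apart between the groups, with no test of that. tRNA-Asp had 1453 ± 149 CPM in cKO and 1448 ± 136 CPM in Control, and tRNA-Asn had 1515 ± 297 CPM in cKO and 1405 ± 308 CPM in Control (SD, n = 6 each). tRNA-His had 1328 ± 377 CPM in cKO and 1087 ± 335 CPM in Control (SD, n = 6 each). Their log2 differences were 0.0034, 0.12 and 0.29, and in cKO 2 they stood at 0.871, 1.28 and 0.777 times the median of the other libraries. Without cKO 2 the log2 differences were 0.042, 0.038 and 0.36, against 0.25 for tRNA-Cys, so tRNA-His was then further apart. In numbers 4 to 6 they were 0.11, -0.12 and 0.71, against -0.084 for tRNA-Cys. All tRNA rows together were 44.8 ± 7.66% of the misc RNA table in cKO and 41.8 ± 7.87% in Control (SD, n = 6 each).

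**Figure D4:**
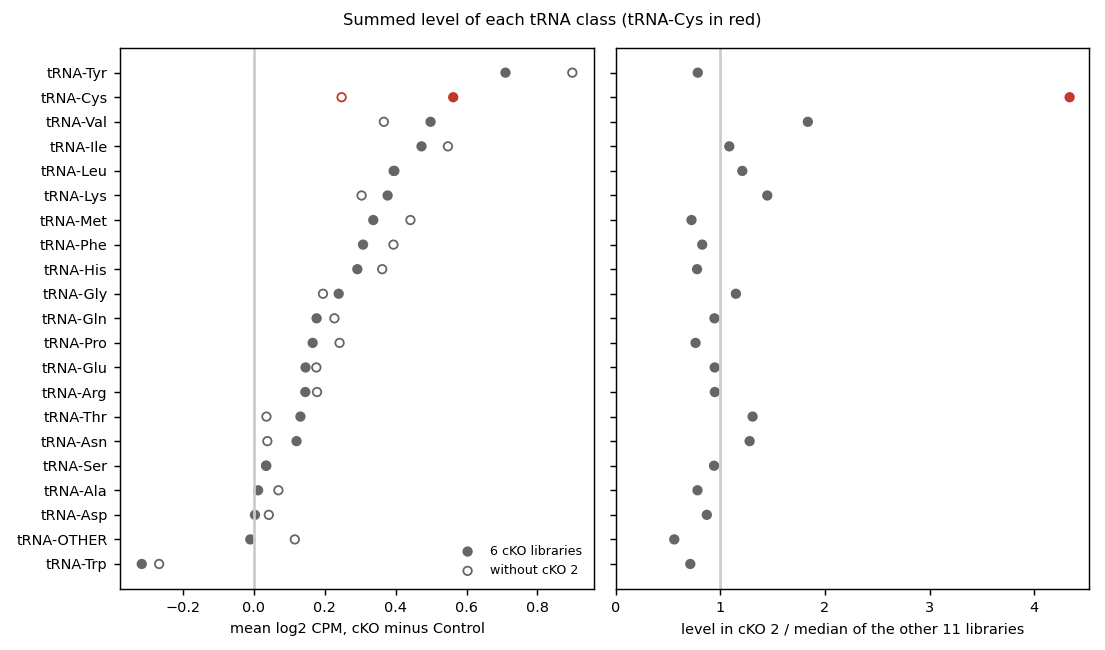
Left, difference of mean log2 CPM (cKO minus Control) of each tRNA class summed over distinct rows, with all 6 cKO libraries (filled) and without cKO 2 (open); right, level in cKO 2 divided by the median of the other 11 libraries, with a grey line at no difference in each panel. tRNA-Cys (red) is second on the left at 0.56, at 0.25 without cKO 2, and is at 4.34 on the right, where the next class is at 1.84.

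Outside the family, the 3 rows whose log2 level was most like the tRNA-Cys sum were sought among 828 tested distinct rows over 12 libraries, which share depth and scaling. A tRNA-Glu copy on chromosome 12 (contig 0, 22152084 to 22152155) came first, with Pearson's r of 0.83, and r was 0.40 without cKO 2. It had 1618 ± 626 CPM in cKO, with 2843 CPM in cKO 2, and 1133 ± 184 CPM in Control (SD, n = 6 each). Snord15a, a box C/D small nucleolar RNA, had r of 0.71, and 0.65 without cKO 2, and Snord118, the U8 small nucleolar RNA that acts in ribosomal RNA processing, had r of 0.70, and 0.43 without cKO 2.

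Genes that make, charge, modify or cut tRNAs were read from the table of all RNAs, whose columns could be assigned to groups and not to single samples. In this small RNA sequencing they had few reads. Of 48 symbols 47 were found, 20 of RNA polymerase III and its factors, 8 of processing, 2 of charging, 11 of modification and 6 of cleavage and its inhibitor, with a median of 36 reads over the 12 libraries. Only Pop1 and Xpot had a row that passed the filter, and 0 of the 47 had a called row, where edgeR called 0 of 1846 rows (0%) with 81 at an unadjusted p under 0.05, and DESeq2 called 10.

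The 4 genes with most reads were Pop1, Gtf3c3, Gtf3c1 and Dicer1. Pop1, a protein subunit of RNase P and RNase MRP, had 952 reads in cKO and 1052 in Control over 2 rows, and the row with most reads had a log2 fold change of -0.46 ± 0.30 (SE). Gtf3c3 and Gtf3c1 belong to TFIIIC, which binds tRNA gene promoters. Gtf3c3 had 95 reads in cKO, 63 of them in 1 library, and 174 in Control, 85 of them in 1 library. Gtf3c1 had 122 reads in cKO, 75 of them in 1 library, and 139 in Control, 102 of them in 1 library. Dicer1, the nuclease that releases miRNAs, had 91 reads in cKO and 63 in Control.

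Xpot, the nuclear export receptor of tRNAs, had 61 reads in cKO and 53 in Control, with a log2 fold change of -0.045 ± 0.29 (SE). Cars, the cytosolic cysteinyl-tRNA synthetase, had 18 reads in cKO and 9 in Control, and its mitochondrial counterpart Cars2 had 30 in cKO, 21 of them in 1 library, and 14 in Control. Ang, the ribonuclease angiogenin, had 12 reads in cKO and 3 in Control. A difference in these genes was not detectable at this depth.

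Marker miRNAs of other cell types were read in the miRNA table, where edgeR called 1 of 494 rows (0.202%) and none of the markers. Red blood cell miRNAs had higher fitted levels in cKO in 4 of 4 rows, with summed levels of 6029 to 18183 CPM in cKO and 3655 to 17907 CPM in Control. Vascular miRNAs did so in 4 of 6 rows (16103 to 23119 CPM in cKO and 13792 to 22083 CPM in Control) and microglial and leukocyte miRNAs in 5 of 8 rows (3118 to 4647 CPM in cKO and 2775 to 3634 CPM in Control). Choroid plexus and epithelial miRNAs did so in 3 of 6 rows, with 3146 to 7604 CPM in cKO and 2795 to 7183 CPM in Control. Neuronal miRNAs did so in 1 of 12 rows (56731 to 66836 CPM in cKO and 54738 to 78006 CPM in Control) and oligodendrocyte miRNAs in 1 of 5 rows (2571 to 4052 CPM in cKO and 2559 to 4369 CPM in Control). In cKO 2, which had the highest tRNA-Cys level, these sums ranked 5 to 10 of 12, and that of microglial and leukocyte miRNAs, 3118 CPM, was the lowest of the cKO libraries. The part of cell makeup in the tRNA-Cys levels was not tested.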

How the data were processed

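Small RNA-seq of dissected CA1 gave 6 cKO and 6 Control libraries. TRI Reagent extraction and DNase treatment gave total RNA, per the labels' protocols, and the Illumina small RNA library was cut from a gel at 150 bp. Base calling used CASAVA, per the submitters' processing notes, with no version given. The aligner, the build and the handling of reads with several matches are not given in the sources used here. The tables deposited by the authors hold whole-number read counts that were not normalized, per the file headers.

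The counts were analysed with edgeR 4.0.16 in R 4.3.3 over each whole table: filterByExpr, TMM factors, a quasi-likelihood fit, two-sided tests, and adjustment over all rows tested with a threshold of 0.05. A miRNA row with no name, 0.00015% of that table, was dropped. Standard errors of log2 fold changes were taken as the fold change over the root of the F statistic. Class sums added distinct rows, with 0.5 counts before the log2, and got no test. Neighbouring copies more than 100000 bases apart ended a cluster.

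The members, gene lists, sets of numbers and markers were chosen with earlier results of these data known. Named were all tested tRNA-Cys rows, the 3 with smallest p in full, the 3 classes nearest in reads, the 3 rows with highest r, and, as no pathway gene passed, the 4 with most reads. Genes named for their role in a sentence or as a check of the labels or tissue (Cars, Cars2, Ang, Xpot, Kat2a, Wfs1, Fibcd1, Mpped1, Prox1, Dsp and Grik4), classes named beside tRNA-Cys, and low rows below the filter were chosen after their values were seen. Symbols for 26081 of 35230 rows of the table of all RNAs came from RefSeq (GRCm38.p6), as did the names of tRNA copies, and none of its coordinates are given.

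Alternatives were RLE factors, DESeq2 1.42.0, scaling to the summed reads of both small RNA tables, no filter, 10 counts in 6 libraries, identical rows once, the replicate number as a block, the sets as a covariate or alone, and each library left out. The largest row in place of the sum was added after seeing the data. Fits were checked on counts simulated from the real rows' means and fitted dispersions, with each row drawn independently. Copies with identical counts and a single high library such as cKO 2 were not simulated. The rates below therefore need not hold for the tRNA-Cys rows. For cKO against Control in the misc RNA table (1043 rows tested), 6.67%, 53.2% and 100% of rows changed 1.5-fold, 2-fold and 4-fold were recovered, with 0 false calls of 100. For the difference between sets (1147 rows tested), 0%, 9.09% and 57.1% were, with 2 false calls of 48. For numbers 1 to 3 against 4 to 6 (1105 rows tested), 12.3%, 47.8% and 97.1% were, with 3 false calls of 110. In the table of all RNAs (1662 rows tested), 0%, 6.90% and 43.9% were, with 1 false call of 30. Reads carry no molecular identifiers, so counting error covers reads, not molecules.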

Additional observations from a re-analysis of the deposited data

Results flagged for a closer look

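A check for a library far from the others of its group, by the gap to the nearest library over the whole range, was made in 48 groups of 6 libraries, over tRNA-Cys rows and class sums. It found 19. Chance flags about 1 in 20 groups that are independent and not chosen on their values. These rows are near copies of each other and were chosen by values that cKO 2 carries, so the number says nothing about chance.

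In cKO, cKO 2 was the highest and far from the others in 17 of them. The gap was 0.7658 of the range for the tRNA-Cys sum. It was 0.7806 for n-TCgca56, 0.7761 for n-TCgca51, 0.775 for n-TCgca53, 0.7724 for n-TCgca49, 0.768 for n-TCgca18 and 0.7669 for n-TCgca37. It was 0.7666 for n-TCgca50, 0.7689 for n-TCgca13, 0.7737 for n-TCgca15, 0.7603 for n-TCgca9, 0.773 for n-TCgca11 and 0.7912 for n-TCgca5. It was 0.7909 for n-TCgca17, 0.7478 for n-TCgca4, 0.7728 for n-TCgca16 and 0.7043 for n-TCgca6. None of the low rows was among them.

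In Control, Control 2 was the lowest and far from the others for n-TCgca56 (0.6251 of the range) and n-TCgca53 (0.6284 of the range). Control 2 had the fewest reads in the misc RNA table, 1779081, of the 12 libraries.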

How the results depend on the processing

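Under all 22 alternatives no misc RNA row was called between cKO and Control, and 424 of 440 values of single tRNA-Cys rows kept their direction, with none past the threshold. The 16 that turned were the high rows in replicate numbers 4 to 6 alone, with log2 fold changes of -0.022 for n-TCgca56, -0.033 for n-TCgca51, -0.034 for n-TCgca53, -0.067 for n-TCgca49, -0.079 for n-TCgca18, -0.080 for n-TCgca37 and n-TCgca5, -0.081 for n-TCgca50 and n-TCgca17, -0.076 for n-TCgca13, -0.089 for n-TCgca15, -0.084 for n-TCgca9, -0.093 for n-TCgca11, -0.14 for n-TCgca4, n-TCgca16 and n-TCgca6. The cause was not tested. The difference of the class sum was 1.21 in numbers 1 to 3 and -0.084 in numbers 4 to 6, and 19 of 20 alternatives were above 0. It ran from 0.25 to 0.70 with 1 library left out, from 0.71 to 1.53 so in numbers 1 to 3, and from -0.12 to -0.026 in numbers 4 to 6. Scaled to the summed reads of both small RNA tables it was 0.014 in numbers 4 to 6, and as a share of tRNA reads -0.29. Calls between the sets were 148 of 1133 rows, 97 of 899 with identical rows once, and 0 to 215 with 1 library left out. They were 4 without cKO 1, 3 without cKO 3, 86 without cKO 4, 0 without cKO 5, cKO 6 or Control 5, and 2 without Control 2. For the difference of the cKO effect between sets, calls were 0 to 49 with 1 library left out. The 49 came without cKO 3 and were copies of 16 distinct rows. DESeq2 called 10 rows in the table of all RNAs. Same-numbered cKO and Control libraries deviated together in some pairs and not in others (correlations of -0.16 to 0.42), so the numbers were not taken as pairs. With the replicate number as a block 0 rows were called. The class sum was 0.56, which a block cannot change in this balanced design, and the fitted log2 fold changes were 0.40 to 0.47 in the 16 high rows and 0.32 to 1.10 in the 4 low tested rows. In this check 1 of 6 cKO libraries correlated best with its own number. With 0 to 110 reads, 7 distinct rows were too shallow to test.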
